A study of Saccharomyces cerevisiae with 4 samples.

Results

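The large subunit of the yeast cytosolic ribosome is built from ribosomal RNA and a set of proteins whose genes are named RPL and a number. This account covers the 42 RPL genes that had a probe set of their own on the array, of 5656 genes in all with such a probe set. A gene was taken when a probe set listed exactly 1 gene and its symbol was RPL followed by digits and at most the letter A or B, and the probe set with the highest mean signal over the arrays stood for it. Each of the 42 symbols also stands in the R64 annotation of the yeast genome, in which 76 genes have an RPL name of this form. Of the others, 32 genes, in 16 A and B pairs, appeared only on probe sets shared by both paralogs, and the rest are not analysed here.

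Most yeast ribosomal protein genes exist as a pair of paralogs, A and B, left by an ancient duplication of the genome, and many carry an intron. Their transcription takes up a large part of RNA polymerase II activity in growing cells. It depends on the DNA-binding protein Rap1 with the cofactors Fhl1 and Ifh1, and it is lowered together under heat, starvation or inhibition of the TOR kinase. Nab3, with Nrd1 and the helicase Sen1, binds nascent RNA and ends the transcription of small nucleolar RNAs (snoRNAs) and other short non-coding transcripts; several snoRNAs lie inside introns of ribosomal protein genes.

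The RNA came from a strain with nab3-11, a temperature-sensitive allele of NAB3 (strain 1099), and from a wild type strain (1415). Each was grown in YPD, a rich medium, and held for 2 hours at 25 °C, the permissive temperature, or at 37 °C, the restrictive one. Each of the 4 combinations was measured on 1 Affymetrix array, so each strain is seen through single cultures, and a difference between strains or temperatures cannot be told apart from a difference between cultures or arrays. No error, test or p-value can be given, and the number of arrays limits the precision of every value.

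For both wild type arrays the free-text description says nab3-11 at 25 °C, while the title and the strain entry say wild type; the latter were followed, and the shift to 37 °C within nab3-11 uses neither of these arrays. NAB3 itself had signals of 66.2 and 66.7 in wild type at 25 and 37 °C and of 72.1 and 81.0 in nab3-11. NRD1, a gene known to be attenuated by the Nrd1-Nab3 complex itself, had 125 and 88.8 in wild type and 291 and 716 in nab3-11. A signal is the authors' probe-set intensity, scaled here to a trimmed mean of 150 on each array. It measures abundance relative to the rest of the RNA, so a change in total RNA per cell is not seen. Signals of different probe sets were not compared as levels of their genes. Differences are log2 values between arrays, a 2-fold difference being 1.

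The 42 genes were bright on every array, with signals from 140 to 7581 and none below the floor of 21.8 that stands for background here. At 25 °C their median signal was 2690 in wild type and 2247 in nab3-11, and at 37 °C it was 1979 and 1330, respectively. The same order of the 4 arrays held for 29 of the 42 genes taken singly. Wild type at 25 °C was highest for 35 genes, and nab3-11 at 37 °C was lowest for 39. The exceptions to the latter were RPL7B, RPL15B and RPL21A. With quantile normalization, which gives every array the same distribution of signals, these counts were 22 and 36. None of these counts was made over all genes, so how far the order is particular to RPL genes is not known. Summed over the 42 genes, the signal at 25 °C was 8.99% of that of all genes in wild type and 7.79% in nab3-11, and at 37 °C it was 6.89% and 5.51%.

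**Figure D1:**
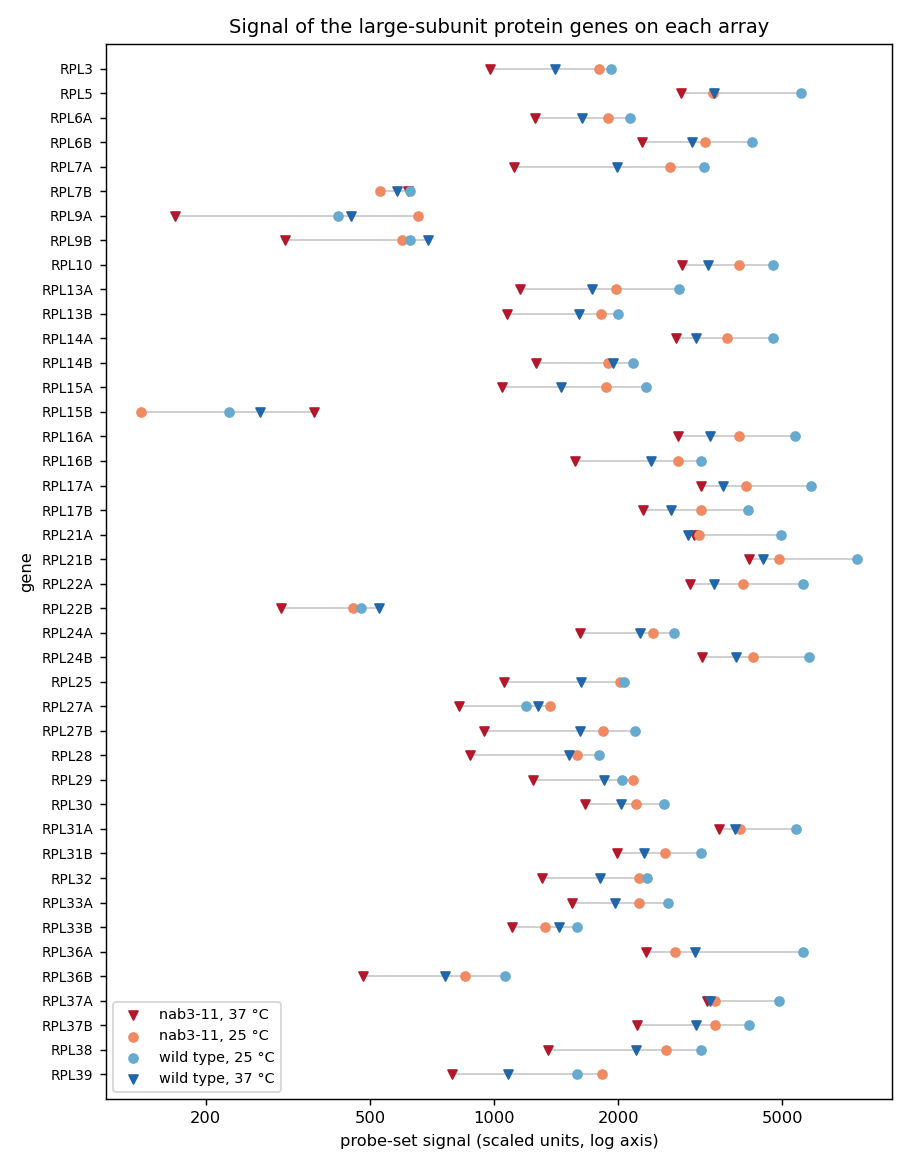
Signal of the 42 genes on the 4 arrays (x axis, scaled units on a log scale), 1 row per gene and 1 point per array, with a grey line from the lowest to the highest array. The nab3-11 array at 37 °C is the lowest point for 39 genes, and the widest lines belong to RPL9A, RPL7A and RPL15B.

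At 37 °C, where loss of Nab3 function was to be seen, RPL transcripts were lower in nab3-11 than in wild type almost throughout, mostly by small amounts. The median log2 difference was -0.43, against -0.05 over the 4770 genes measured, and the values ran from -1.41 to 0.44 with an SD over genes of 0.33. Of the 42 genes, 39 were lower by some amount, where 54.3% of all genes were. At least 1.5-fold lower were 12 genes, where 14.0% of all genes were, and at least 2-fold lower were 2 genes, RPL9A and RPL9B, where 3.94% of all genes were. No RPL gene was 1.5-fold higher. Thus 23 of the 42 lay below the first quartile of all genes (-0.38) and 1 above the third (0.28). Against the mean of both 25 °C arrays, without the wild type 37 °C array, the median for nab3-11 at 37 °C was -0.68. This value also holds the shift from 25 to 37 °C, whose median in wild type was -0.46, and it was not computed over all genes.

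The widest differences at 37 °C were in RPL9A and RPL9B, the paralogs for a protein near the site where translational GTPases bind. RPL9A had signals of 418 and 450 in wild type at 25 and 37 °C, and of 656 and 169 in nab3-11. The nab3-11 array at 37 °C was thus below all others, 2.66-fold below wild type at that temperature, while nab3-11 at 25 °C was the highest of the 4. RPL9B had signals of 625 and 694 in wild type and of 598 and 312 in nab3-11, so that 3 arrays lay close together and nab3-11 at 37 °C stood 2.22-fold below wild type. A probe set shared by RPL9A and RPL9B gave 1888 and 1160 in wild type and 1481 and 546 in nab3-11, again lowest in nab3-11 at 37 °C, with a log2 difference of -1.09 to wild type. On this shared probe set, unlike on the other 2, wild type also fell to lower signal between 25 and 37 °C, by 0.70 on the log2 scale.

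Several of the genes encode proteins at the exit tunnel of the nascent chain, and values of 6 are given here as examples. RPL25, which encodes the docking site of the signal recognition particle at the tunnel exit, had signals of 2072 and 1629 in wild type at 25 and 37 °C and of 2025 and 1058 in nab3-11, a difference of -0.62 at 37 °C. For RPL39, which encodes a small protein of the tunnel wall, the signals were 1587 and 1084 in wild type and 1833 and 789 in nab3-11, a difference of -0.46. In both genes the strains were close at 25 °C and nab3-11 was lower at 37 °C. RPL17A and RPL17B, for a protein that reaches into the tunnel, differed by -0.17 and -0.22 at 37 °C, and RPL31A and RPL31B, at the exit, by -0.12 and -0.22.

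Near the catalytic centre, RPL3 had signals of 1922 and 1403 in wild type at 25 and 37 °C and of 1801 and 978 in nab3-11. RPL28, the gene in which resistance to cycloheximide was mapped as CYH2, had 1803 and 1518 in wild type and 1590 and 875 in nab3-11. RPL10, whose protein joins late and completes the subunit, had 4746 and 3311 in wild type and 3932 and 2859 in nab3-11. The differences at 37 °C were -0.52, -0.79 and -0.21. All 3 genes were lowest in nab3-11 at 37 °C and highest in wild type at 25 °C. RPL5, which encodes the carrier protein of the smallest ribosomal RNA of the subunit, had 5567 and 3423 in wild type and 3394 and 2849 in nab3-11, so that wild type at 25 °C stood apart from the other 3 arrays.

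The remaining genes without a paralog lay in the same range at 37 °C. RPL38, whose mouse counterpart is known for its part in translating patterning genes, differed by -0.71, RPL29 by -0.58, RPL32 by -0.47 and RPL30, whose protein represses splicing of its own transcript, by -0.30. All 10 single-copy genes were lower in nab3-11, with a median of -0.49 and a narrow SD of 0.19. The 16 A genes had a median of -0.36 and the 16 B genes one of -0.44.

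Beyond RPL9B, the lower end at 37 °C held RPL7A (-0.83), RPL28, RPL22B (-0.79), RPL27B (-0.77), RPL38, RPL36B (-0.66) and RPL27A (-0.64). RPL22B, a gene whose splicing is repressed by its own protein product, had signals of 477 and 526 in wild type at 25 and 37 °C and of 456 and 304 in nab3-11, of which only the last stood apart. At the upper end, RPL15B was at 0.44, RPL7B at 0.09, RPL21A at 0.05, RPL37A at -0.03, RPL21B at -0.11, RPL31A at -0.12, RPL14A at -0.16, RPL17A at -0.17 and RPL22A at -0.19. Other genes with a 1.5-fold difference were RPL14B (-0.63), RPL25 (-0.62) and RPL16B (-0.61), and just short of it lay RPL13A and RPL13B, both at -0.58.

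At 25 °C the strains already differed, and in the same direction. The median was -0.27, against 0.01 over 4282 genes, and 38 of the 42 genes were lower in nab3-11, where 48.6% of all genes were. At least 1.5-fold lower were 5 genes, where 4.76% of all genes were, and 1 gene, RPL36A, was at least 2-fold lower, where 0.537% of all genes were. RPL36A had signals of 5629 and 3078 in wild type at 25 and 37 °C and of 2755 and 2342 in nab3-11, so its difference at 25 °C rested on 1 high array. A probe set shared by RPL36A and RPL36B had 2519 in wild type and 2341 in nab3-11 at 25 °C, a difference of only -0.11. The other 4 genes at least 1.5-fold lower were RPL5 (-0.71), RPL15B (-0.71), RPL21A (-0.66) and RPL21B (-0.62). RPL17A followed at -0.52, RPL37A at -0.52 and RPL13A at -0.51. The genes above zero were RPL9A (0.65), RPL39 (0.21), RPL27A (0.19) and RPL29 (0.09). Next came RPL25 (-0.03), RPL22B (-0.07), RPL9B (-0.06) and RPL32 (-0.07).

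These values depended on how the arrays were brought to one scale. With quantile normalization the median at 25 °C was -0.07 and 30 of the 42 genes were lower, and at 37 °C it was -0.32 with 38 genes lower. The medians over all genes were then -0.02 and -0.09, and the shares of all genes lower were not counted. RPL36A was then at -0.68 at 25 °C, and no gene passed 2-fold there.

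The strain differences at the 2 temperatures share no array. They had the same sign in 35 of the 42 genes, yet their sizes ran in opposite orders. Across the 42 genes Pearson's r was -0.66 and Spearman's rho -0.64, given as a description, since all genes share the same 4 arrays. Each difference also moved with the mean log2 signal on the 2 arrays outside it (rho 0.53 at 37 °C and -0.64 at 25 °C). The correlation was computed on the trimmed-mean scale only, and the part of brightness in it was not tested. RPL21A, RPL21B and RPL37A, at -0.66, -0.62 and -0.52 at 25 °C, were at 0.05, -0.11 and -0.03 at 37 °C.

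**Figure D2:**
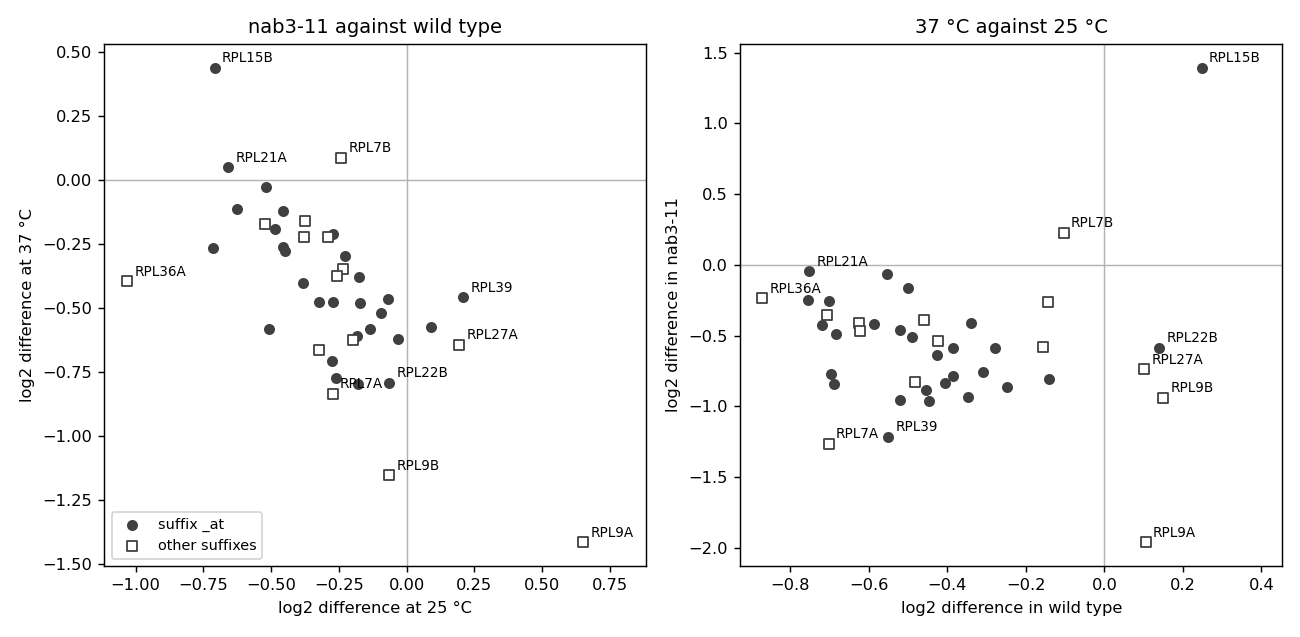
Left, log2 difference of nab3-11 to wild type, with 25 °C on the x axis and 37 °C on the y axis; right, log2 difference of 37 °C to 25 °C in wild type (x axis) and in nab3-11 (y axis). Each point is 1 of the 42 genes, filled for probe sets ending in _at; the left cloud slopes downward (r = -0.66), and RPL9A and RPL15B lie far from the cloud in both panels.

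Both strains had lower RPL signals at 37 °C than at 25 °C, opposite to the drift of all genes. In wild type the median was -0.46, against 0.29 over 4650 genes, and 37 of the 42 genes were lower, where 28.7% of all genes were. At least 1.5-fold lower were 13 genes, where 6.41% of all genes were, and none was 2-fold lower, where 1.44% of all genes were. All 42 lay below the median of all genes. The lowest were RPL36A (-0.87), RPL21B and RPL21A (-0.75 each), RPL22A (-0.72), RPL17A (-0.71), RPL5 and RPL7A (-0.70 each) and RPL13A (-0.70). The genes above zero were RPL15B (0.25), RPL9B (0.15), RPL22B (0.14), RPL9A (0.11) and RPL27A (0.10), followed by RPL7B (-0.10), RPL29 (-0.14) and RPL33B (-0.14).

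In nab3-11 the shift was wider. The median was -0.58, against 0.21 over 4630 genes, with an SD over the 42 genes of 0.49. Lower by some amount were 40 genes, where 37.7% of all genes were, and at least 1.5-fold lower were 21 genes, where 12.3% of all genes were. The 3 genes at least 2-fold lower, where 4.06% of all genes were, were RPL9A (3.89-fold), RPL7A (2.40-fold) and RPL39 (2.32-fold). They were followed by RPL27B (-0.96), RPL38 (-0.95), RPL9B and RPL25 (-0.94 each) and RPL3 (-0.88).

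RPL15B was the exception in nab3-11. This gene, which encodes a protein buried in the ribosomal RNA, had signals of 228 and 271 in wild type at 25 and 37 °C and of 140 and 367 in nab3-11. Between 25 and 37 °C it was 2.63-fold higher in nab3-11, and it was the 1 RPL gene at least 2-fold higher, where 15.7% of all genes were. With every array scaled to a common median its log2 shift was 0.88, short of 2-fold. Its paralog RPL15A had 2340 and 1453 in wild type and 1872 and 1045 in nab3-11, a shift of -0.84. RPL7B, at 0.23, was the other gene above zero, and the smallest shifts below it were those of RPL21A (-0.05), RPL37A (-0.06), RPL31A (-0.17), RPL36A (-0.23), RPL21B (-0.24) and RPL5 (-0.25).

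The sizes of these shifts depended on the scaling. In wild type the median over all genes was 0.29 with the trimmed-mean scale and -0.18 with a common median, and the RPL median was -0.46 and -0.96. Relative to all genes the RPL genes thus lay at -0.74 and -0.78. With quantile normalization the RPL medians were -0.06 in wild type and -0.31 in nab3-11, with 29 and 36 of the 42 genes lower. With a common median all 42 genes were lower in wild type, those above zero on the trimmed-mean scale included, but the median over all genes was itself -0.18 there. With quantile normalization the medians over all genes were -0.02 in wild type and -0.08 in nab3-11. Shares of all genes lower were not counted on either of these scales.

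The strain-by-temperature difference asks how far the shift in nab3-11 departs from that in wild type, gene by gene. Its median was -0.14, against -0.05 over 4811 genes. Lower were 26 of the 42 genes, where 53.6% of all genes were, and at least 1.5-fold lower were 8, where 17.3% of all genes were. At least 2-fold lower were 2 genes, RPL9A (-2.06) and RPL9B (-1.09), where 5.45% of all genes were, and 1 gene, RPL15B (1.15), was at least 2-fold higher, where 4.47% of all genes were. These counts are near the shares among all genes. After RPL9B came RPL27A (-0.84), RPL22B (-0.73), RPL39 and RPL29 (-0.66 each), RPL28 (-0.61) and RPL25 (-0.59). After RPL15B came RPL21A (0.71), RPL36A (0.64), RPL21B (0.51), RPL37A (0.49), RPL5 (0.45), RPL17A (0.35) and RPL31A (0.33).

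Both paralogs had a probe set of their own in 16 pairs, and the A and B members were compared by their differences between arrays. At 37 °C, where 39 of the 42 genes were lower, both members of 13 pairs differed from wild type in the same direction. The median size of the gap between A and B was 0.23, against 0.29 over the 845 other combinations of 2 of the 42 genes, those without a letter included. In the 8 pairs with probe sets ending in _at for both members it was 0.28. For these 8 it was 0.27 for the strains at 25 °C and 0.19 and 0.29 for the shifts in nab3-11 and wild type. For the strain-by-temperature difference it was 0.55. For the strains at 37 °C, over all 16 pairs, A was the lower member in 5 and B in 11. Gaps of at least 1.5-fold occurred there in 3 pairs and none reached 2-fold. The 3 were RPL7, with A lower by 0.92, RPL15, with A lower by 0.91, and RPL22, with B lower by 0.60. RPL14 followed at 0.46 and RPL37 at 0.45, with B lower in each. The RPL7 gap, here and in the comparisons below, rests on the brightest of the 3 RPL7A probe sets. Their strain differences at 37 °C spanned 2.49, with the _at probe set at 1.08. The narrowest gaps were those of RPL13 (0.00), RPL6 (0.02) and RPL33 (0.03).

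At 25 °C the median gap was 0.26, against 0.23 for the other combinations, and A was the lower member in 10 pairs. The widest gaps were in RPL9, where B was lower by 0.71, and RPL36, where A was lower by 0.71. In RPL27 B was lower by 0.45, in RPL22 A by 0.42, and in RPL15 B by 0.39. The narrowest were RPL33 (0.02), RPL7 (0.03) and RPL21 (0.03).

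For the shift to 37 °C in nab3-11 the median gap was 0.22, against 0.36 for the other combinations, and 3 pairs had a gap of at least 2-fold. These were RPL15 (A lower by 2.23), RPL7 (A lower by 1.49) and RPL9 (A lower by 1.02), with RPL36 (B lower by 0.59) and RPL37 (B lower by 0.57) next. RPL13 (0.01), RPL6 (0.08) and RPL17 (0.11) were the closest. In wild type the shift had a median gap of 0.29, against 0.25 for the other combinations, the widest being RPL15 (A lower by 0.94), RPL22 (A lower by 0.86), RPL7 (A lower by 0.60), RPL27 (B lower by 0.55) and RPL14 (A lower by 0.47). The closest were RPL21 (0.00), RPL31 (0.04) and RPL9 (0.04).

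In the strain-by-temperature difference the median gap was 0.55, against 0.50 for the other combinations. RPL15 (A lower by 1.30) and RPL22 (B lower by 1.02) passed 2-fold, RPL36 and RPL9 were at 0.98, with B lower in the former and A in the latter, and RPL7 was at 0.89 with A lower. RPL33 (0.01), RPL6 (0.18) and RPL17 (0.19) were closest. Only 8 of the 16 pairs had both members on the same side of zero there.

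**Figure D3:**
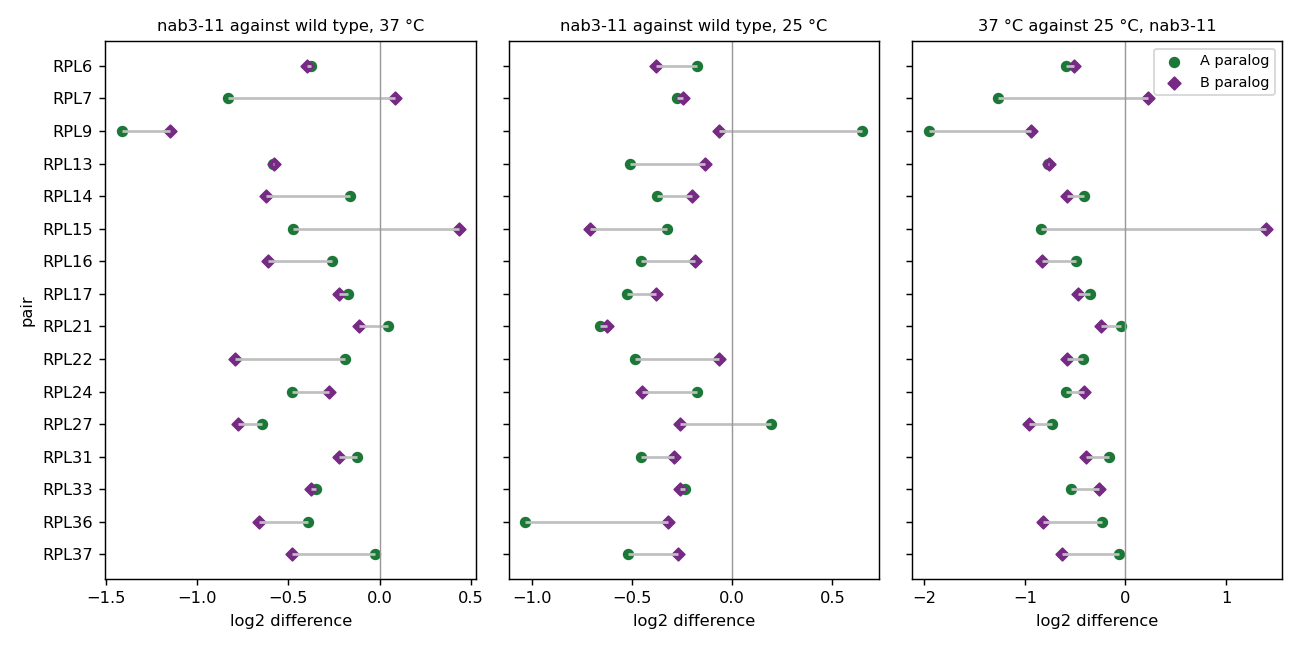
Log2 differences of the A (circles) and B (diamonds) members of 16 pairs, joined by a line, for the strain difference at 37 °C, the strain difference at 25 °C and the shift from 25 to 37 °C in nab3-11. The lines of RPL7 and RPL15 are the longest in the left and right panels, and those of RPL9 and RPL36 in the middle one.

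Medians of genes read by different types of probe set lay close together. In the array maker's naming a suffix of _at alone marks a probe set designed to be unique, while _i_at and _f_at mark probe sets that are incomplete or can bind several related sequences. Of the 42 genes, 28 were read by an _at probe set, 9 by _i_at and 5 by _f_at. At 37 °C the median difference between strains was -0.46 for the 28 and -0.39 for the other 14, and at 25 °C it was -0.27 for both. The shift to 37 °C had medians of -0.59 and -0.50 in nab3-11 and of -0.47 and -0.44 in wild type. The extremes were divided unevenly: RPL9A, RPL9B, RPL7A and RPL36A were all read by _i_at probe sets, while RPL15B, RPL39, RPL22B and RPL28 were read by _at probe sets. At 37 °C the SD over genes was 0.28 among the 28 and 0.41 among the 14.

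Brightness moved with the differences, in opposite directions in different comparisons. The 42 genes were divided at their median mean signal of 2111 over the 4 arrays. At 37 °C the 21 brighter genes had a median strain difference of -0.26 and the 21 dimmer ones -0.58, whereas at 25 °C they had -0.38 and -0.18. For the shift in nab3-11 the medians were -0.42 and -0.78, and for that in wild type -0.59 and -0.31. Spearman's rho between a difference and the mean log2 signal on the 2 arrays outside that comparison was 0.53 for the strains at 37 °C, -0.64 at 25 °C, 0.47 for the shift in nab3-11 and -0.71 for that in wild type, over 42 genes that share the same arrays. With quantile normalization the brighter and dimmer genes had medians of -0.07 each at 25 °C and of -0.15 and -0.50 at 37 °C. The part of brightness in the differences between genes was not tested.

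**Figure D4:**
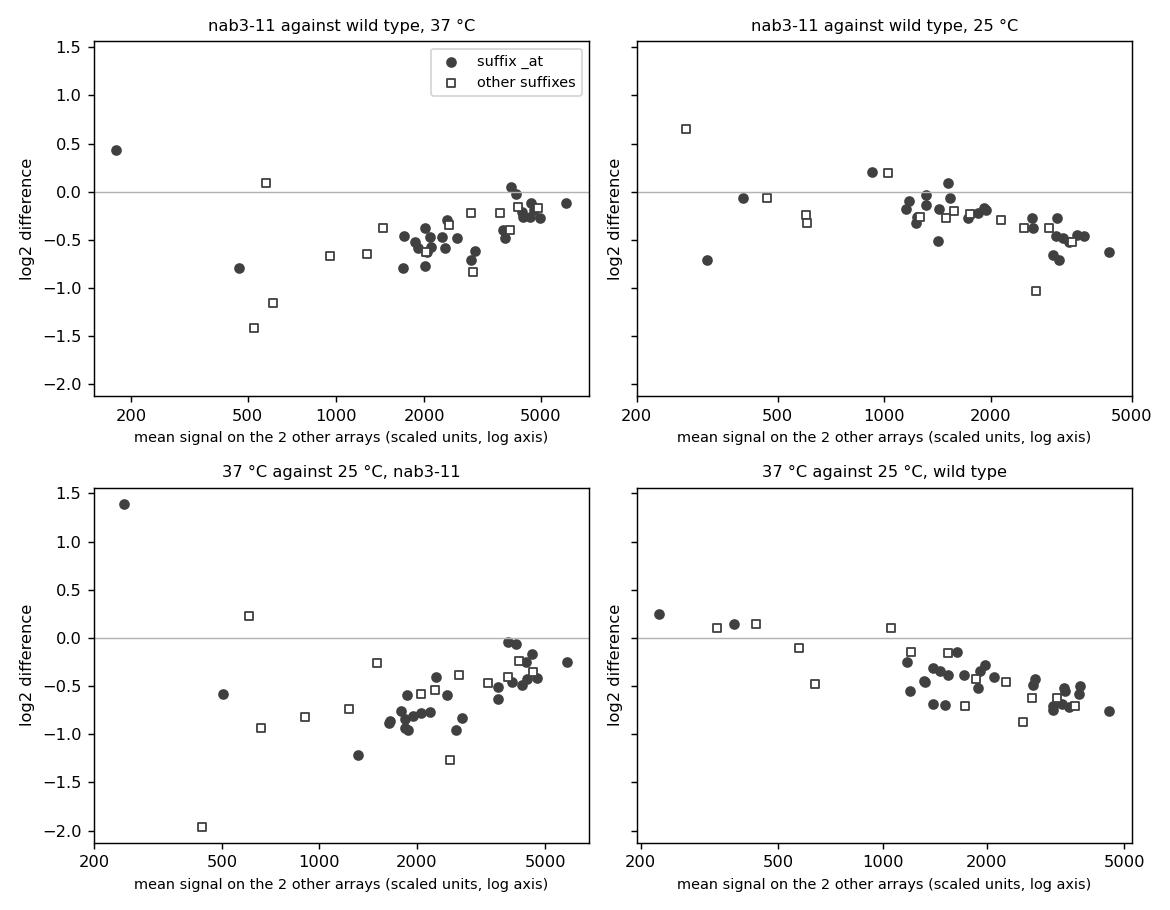
Log2 difference of each of the 42 genes (y axis) against its mean signal on the 2 arrays that the comparison does not use (x axis, scaled units on a log scale), in 4 panels, with filled points for _at probe sets. The points rise with signal for the strains at 37 °C and the shift in nab3-11 (rho 0.53 and 0.47), and fall with it for the strains at 25 °C and the shift in wild type (rho -0.64 and -0.71).

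Paralogs can be set side by side in the same way. The member read by the brighter probe set had the lower difference in 13 of 16 pairs for the strains at 25 °C and in 15 of 16 for the shift in wild type, but in 6 of 16 for both the strains at 37 °C and the shift in nab3-11. For 15 targets with several probe sets, 7 single genes and 8 pairs on shared probe sets, the dimmest probe set had the lower strain difference at 37 °C in 14 and at 25 °C in 3. RPL17A illustrates this: its _i_at probe set had 5859.9 and 3594 in wild type at 25 and 37 °C and 4077 and 3187 in nab3-11, differences of -0.52 between strains at 25 °C and -0.17 at 37 °C. Its dimmer _f_at probe set had 2176 and 1730.5 in wild type and 2209 and 1329 in nab3-11, differences of 0.02 and -0.38. The RPL31B probe sets behaved alike, with the dimmest at -0.17 at 25 °C and -0.53 at 37 °C where the brightest was at -0.29 and -0.22. The 3 probe sets of RPL17B stayed within 0.11 of each other at 37 °C, and both of RPL27A within 0.12. At 25 °C these spans were 0.23 and 0.28.

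The exception among the 15 was RPL7A, whose 3 probe sets went in opposite directions. On the _i_at probe set that stands for the gene here, RPL7A had signals of 3237 and 1990 in wild type at 25 and 37 °C and of 2678 and 1116 in nab3-11. The _f_at probe set gave 1094 and 676 in wild type and 1046 and 255 in nab3-11, lower in nab3-11 at 37 °C by 1.41 on the log2 scale. The _at probe set gave 51.6 and 64.4 in wild type and 98.0 and 137 in nab3-11. On the first 2, nab3-11 at 37 °C was the lowest array, and on the third it was the highest, by 1.08 over wild type at 37 °C, with nab3-11 also above wild type by 0.92 at 25 °C. The mean over the 3 probe sets gave a shift to 37 °C in nab3-11 of -0.94, short of 2-fold.

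In the R64 annotation the snoRNA gene SNR39 lies within RPL7A, and SNR59 within RPL7B; no other gene overlapped any of the 42. SNR39 had signals of 27.8 and 41.4 in wild type at 25 and 37 °C and of 57.8 and 76.8 in nab3-11. The arrays thus stood in the same order for SNR39 as for the _at probe set of RPL7A, and the strain differences of SNR39 were 0.89 at 37 °C and 1.06 at 25 °C. The SNR39 signal of 27.8 in wild type at 25 °C lay close to the floor of 21.8, which limits the second value. Which part of the transcript this RPL7A probe set reads was not determined, and SNR59 is not analysed here.

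RPL7B varied less on the probe set that stands for it. Its _i_at probe set had signals of 626 and 583 in wild type at 25 and 37 °C and of 529 and 619 in nab3-11, and its _f_at probe set had 269 and 195 in wild type and 154 and 155 in nab3-11. A probe set shared by RPL7A and RPL7B had 4016 and 2549.6 in wild type and 3292 and 1681 in nab3-11, in the order of the brightest RPL7A probe set, with a strain difference of -0.60 at 37 °C.

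**Figure D5:**
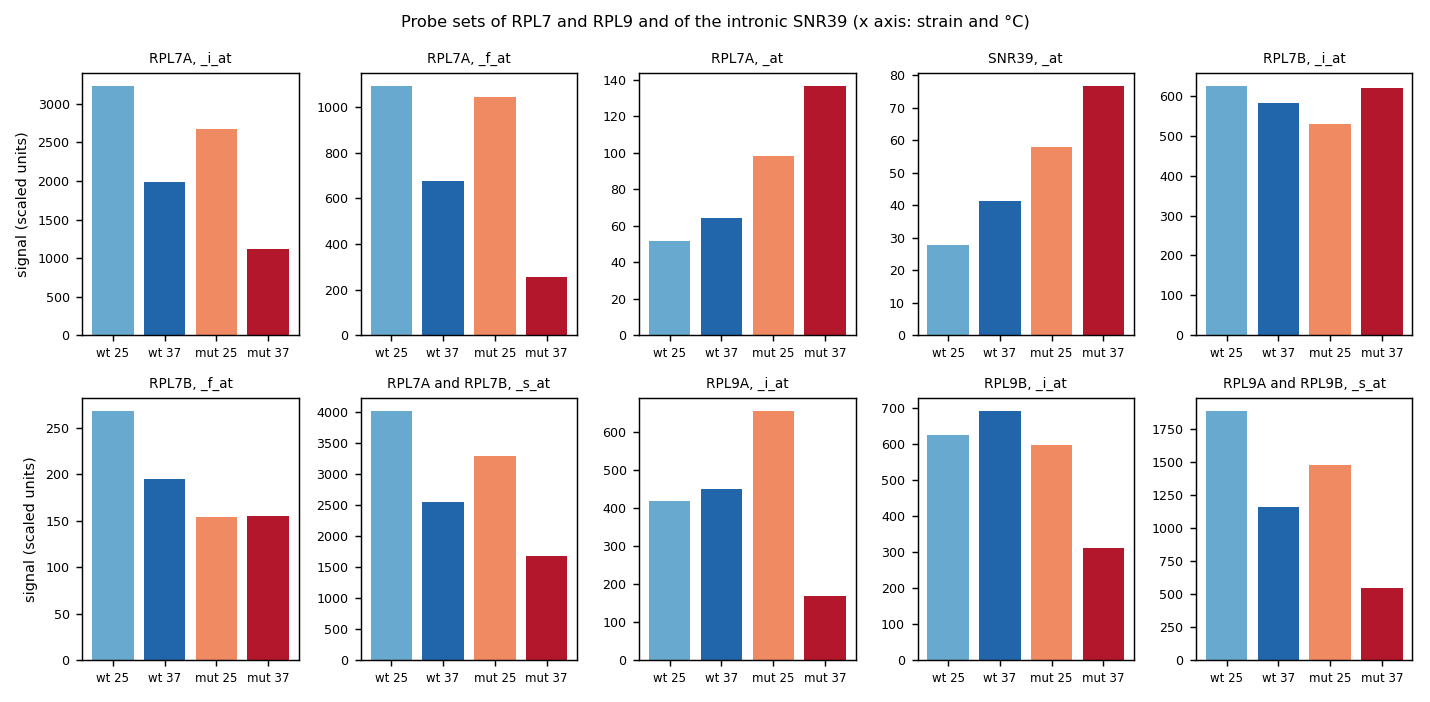
Signal (y axes, scaled units, each from 0 on its own scale) of the probe sets of RPL7A, RPL7B, RPL9A and RPL9B, of those shared by each pair, and of SNR39 on the 4 arrays, 1 bar per array (wt, wild type; mut, nab3-11; the number is the temperature in °C). The nab3-11 array at 37 °C is the lowest bar on all RPL9 probe sets and on 2 of the 3 of RPL7A, and the highest on the _at probe set of RPL7A (137) and on SNR39 (76.8).

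The 16 pairs seen only through shared probe sets, which report the sum of both paralogs at best, gave a similar picture on the brightest probe set of each pair. At 37 °C all 16 were lower in nab3-11, with a median of -0.32, where 54.3% of all genes were lower. At 25 °C 15 were lower, with a median of -0.31, where 48.6% of all genes were. The shift to 37 °C was negative for all 16 in both strains, where it was for 37.7% of all genes in nab3-11 and 28.7% in wild type. Its medians over the 16 were -0.46 in nab3-11 and -0.43 in wild type. RPL42A and RPL42B had a joint signal of 1448 and 1288 in wild type at 25 and 37 °C and of 1455 and 678 in nab3-11, so that nab3-11 at 37 °C stood below the other 3 arrays, with a strain difference of -0.93 at that temperature. RPL41A and RPL41B, the genes of the smallest protein of the subunit, had 89.4 and 69.9 in wild type and 84.6 and 31.2 in nab3-11, a difference of -1.17 at 37 °C. These signals are low, the last of them near the floor of 21.8. RPL40A and RPL40B, which encode fusions of ubiquitin to a ribosomal protein, had 2113 and 1591 in wild type and 1993 and 1198 in nab3-11.

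Genes of the small subunit moved like those of the large one. Over 33 RPS genes the medians were -0.41 for the strains at 37 °C, -0.35 at 25 °C, -0.51 for the shift in nab3-11 and -0.51 for that in wild type, and 10 of 33 were at least 1.5-fold lower in nab3-11 at 37 °C, where 14.0% of all genes were. RPS26B (-1.04), RPS15 (-0.97) and RPS9B (-0.83) were lowest and RPS26A (0.21), RPS14B (0.05) and RPS21B (0.02) highest. The 5 genes of the acidic stalk, where elongation factors dock, differed by a median of only -0.13 at 37 °C but by -0.54 at 25 °C. Of these genes RPP2A was at -0.63 at 37 °C, RPP2B at -0.26, RPP1A at -0.13, RPP0 at 0.02 and RPP1B at 0.13.

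On the trimmed-mean scale, mitochondrial large-subunit genes parted from the cytosolic ones with temperature. The 34 MRPL genes had a median of -0.42 between the strains at 37 °C, next to -0.43 for RPL, with MRPL11 (-1.05), MRPL51 (-0.91) and MRPL38 (-0.87) lowest and MRPL4 (0.45), MRPL23 (0.29) and MRPL40 (0.11) highest. Their shift to 37 °C was 0.39 in wild type and 0.12 in nab3-11, where RPL genes had -0.46 and -0.58. MRPL signals were far dimmer, from 15.4 to 422, where those of RPL ran from 140 to 7581. With quantile normalization the RPL shifts were -0.06 and -0.31, and the MRPL shifts were not computed on that scale. The part of brightness and scaling in this contrast was not tested. A list of assembly factors of the large subunit, most of them late-acting, had a median of -0.47 between strains at 37 °C over 13 measured genes, 5 of which were at least 1.5-fold lower, where 14.0% of all genes were. LSG1 (-1.09), a GTPase gene of the last cytoplasmic steps, YVH1 (-1.05) and RLP7 (-0.97), which encodes an early nucleolar factor, were lowest, and TIF6 (0.27), RLI1 (-0.09) and NOG2 (-0.17) highest. In nab3-11 at 37 °C the signals of MRPL11 (24.8) and LSG1 (26.9) lay close to the floor of 21.8.

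A list of partners of large-subunit proteins, not all of them dedicated to these proteins, had a median of -0.31 over 9 measured genes at 37 °C. BCP1 was at -1.08, RRB1, which encodes the chaperone of the RPL3 protein, at -0.75 and the importin gene KAP123 at -0.66. RKM5, which encodes a methyltransferase of a large-subunit protein, was at 2.10, SQT1, the gene of the RPL10 chaperone, at -0.33, SYO1 at -0.22, PSE1 at -0.17, ACL4 at -0.16 and RKM1 at -0.31. Regulators of ribosomal protein genes had a median of -0.14 over 13 measured genes, 1 of which was at least 1.5-fold lower, where 14.0% of all genes were. TOR1 was at -0.65, RAP1 at -0.49 and HMO1 at -0.45, and STB3 was at 0.88, KOG1 at 0.64 and SCH9 at 0.05. STB3 had signals of 23.0 in wild type and 42.2 in nab3-11 at 37 °C, the former close to the floor of 21.8. RAP1 had signals of 68.2 and 56.8 in wild type at 25 and 37 °C and of 68.5 and 40.6 in nab3-11, and HMO1, a cofactor at many RPL promoters, had 807 and 504 in wild type and 741 and 370 in nab3-11. FHL1 and CRF1 were below the floor on all 4 arrays.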

How the data were processed

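RNA of 4 yeast cultures was primed with oligo(dT), amplified in 1 round, labelled with biotin and hybridised, per the labels' protocols. The deposited values are MAS5 intensities on a linear scale made with GCOS 1.1.1, per the submitters' processing notes; no genome build was named for them. The authors' detection calls were not used. Of 9335 probe sets, 60 controls were left out, and 6504 listed a single gene.

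Each array was scaled to a 2% trimmed mean of 150. Signals under the 40th percentile (21.8) were raised to it before log2, and a gene at the floor on both sides of a comparison was not measured there. The brightest probe set by mean stood for a gene, which left 5656 genes. With 1 array a group there is no test: genes were counted as lower or higher past a 2-fold difference, with 1.5-fold and sign beside it, in 5 comparisons. The genes named are all members past 2-fold, the 8 lowest and 8 highest of each comparison, the genes without a letter, the 5 widest and 3 closest pairs, RPL7A and RPL7B with their snoRNAs, and the 3 lowest and 3 highest of each list at 37 °C. RPL16B, the remaining genes of small lists and the shared pairs RPL40, RPL41 and RPL42 lie outside this rule and were chosen after their values were seen. The members and lists were chosen with earlier results of these data known. Alternatives were other scalings, floors, fold limits and choices of probe set; the division by brightness was added after seeing the data. The counting was tested on simulated data. Values were computed in Python 3.11.15 with pandas 2.3.3 on numpy 2.4.6, correlations with scipy 1.17.1, and plots with matplotlib 3.10.9.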

Additional observations from a re-analysis of the deposited data

Results flagged for a closer look

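In 9 of the 42 RPL genes an effect had opposite signs on the 2 sides of the design, and with 1 array a group none of these differences was tested. Opposite signs were not counted among all genes. Lower in nab3-11 at both temperatures were 35 RPL genes and 1196 of 4194 genes in all. Lower at 37 °C in both strains were 36 RPL genes and 909 of the 4194. The shift from 25 to 37 °C was negative in nab3-11 and positive in wild type for RPL9A (-1.96 and 0.11), RPL9B (-0.94 and 0.15), RPL22B (-0.59 and 0.14) and RPL27A (-0.74 and 0.10), and the reverse for RPL7B (0.23 and -0.10). These opposite signs depended on the scale: with a common median the shift was negative in both strains for all 5 genes (in wild type -0.40 for RPL9A and -0.35 for RPL9B, in nab3-11 -0.29 for RPL7B), while with quantile normalization the signs stayed opposite. The strain-by-temperature differences of these genes were -2.06, -1.09, -0.73, -0.84 and 0.33. On the other RPL27A probe set (_f_at) the shift was negative in both strains (-0.83 in nab3-11 and -0.15 in wild type). It was also negative in both on the probe set shared by RPL9A and RPL9B (-1.44 and -0.70). The other RPL7B probe set (_f_at) kept the opposite signs (0.01 and -0.46).

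The strain difference was negative at 37 °C and positive at 25 °C for RPL9A (-1.41 and 0.65), RPL27A (-0.64 and 0.19), RPL29 (-0.58 and 0.09) and RPL39 (-0.46 and 0.21), and positive at 37 °C and negative at 25 °C for RPL15B (0.44 and -0.71), RPL21A (0.05 and -0.66) and RPL7B (0.09 and -0.24). The strain-by-temperature differences of RPL29 and RPL39 were -0.66 each, that of RPL15B was 1.15 and that of RPL21A 0.71. Several of the smaller differences lie within 0.25 of zero. On the other RPL27A probe set the strain difference was negative at both temperatures (-0.76 at 37 °C and -0.08 at 25 °C). The same held for the other RPL7B probe set (-0.33 and -0.80) and for the probe set shared by RPL9A and RPL9B (-1.09 and -0.35).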

How the results depend on the processing

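No paired analysis was possible because each group holds 1 array. The RPL medians kept their sign under all 56 alternatives run on them. Among these was the comparison of nab3-11 at 37 °C with both 25 °C arrays, which is a different quantity, and several others could not move the medians. Floors at the 25th and 55th percentile left every median unchanged, since all 42 genes were bright, and so did the platform's own symbols. With quantile normalization the medians lay only -0.04 from all genes at 25 °C and -0.05 in the wild type shift. Counts of genes moved with the fold limit. At 1.5-fold the lower genes numbered 12 and 5 for the strains at 37 and 25 °C, 21 and 13 for the shifts in nab3-11 and wild type and 8 for the strain-by-temperature difference, with 1 gene higher at 25 °C and 3 higher in the last. At 3-fold 0, 0, 1 and 1 genes were lower for the strains at 37 and 25 °C, the shift in nab3-11 and the strain-by-temperature difference, and 0 were higher in the last 2. With a common median 25 and 17 genes were lower in the shifts in nab3-11 and wild type, and 0 were higher in nab3-11. Relative to the median of all genes these shifts had 13 and 4 lower. With quantile normalization 0 genes were lower at 25 °C, the median of _at minus other probe sets turned to 0.013 at 25 °C and 0.022 in the wild type shift, and that of brighter minus dimmer genes to 0.0017 at 25 °C. With _at probe sets alone (29 genes) 0, 0, 1 and 0 genes were lower for the strains at 37 and 25 °C, the shift in nab3-11 and the strain-by-temperature difference, 1 was higher at 37 °C, and the shift of RPL7A in nab3-11 turned to 0.48, read by its other probe set. With shared probe sets included (64 entries) 4 were lower at 37 °C and 7 in the nab3-11 shift. Shares of all genes at 3-fold, on other scales or with other choices of probe set were not counted. Other causes were not tested. Of 2245 values of single genes under alternatives, 49 changed sign, and 1 of these, the RPL7A shift above, had been 2-fold. Many of the 2245 come from the alternatives that left values unchanged, so the 49 are no measure of robustness. With 1 array a group, spread between cultures was not measured.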
